A study of Homo sapiens with 12 samples.

Results

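The genes described here are 10 of the interferon response, followed in AC16 cells exposed to doxorubicin: 4 guanylate-binding protein genes (GBP1, GBP2, GBP3 and GBP4) and 6 tripartite-motif genes (TRIM5, TRIM21, TRIM22, TRIM25, TRIM34 and TRIM38). They were chosen by symbol, with their levels in all 4 groups already known, to set a gene that stayed above the control (TRIM22) beside one that ended below it (GBP1). Their levels, fold changes and call counts are therefore given as descriptions without p-values. They are 10 of the 60607 genes in the count table, and all 10 were among the 17320 genes with enough counts to be tested. GBP4 and TRIM34 passed that filter through groups in which they were higher.

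AC16 is a human line made by fusing cells of the adult heart ventricle with transformed fibroblasts. The labels call the cells cardiomyocytes with the genotype WT, and all groups are this single line. The 12 libraries form 4 groups of 3: cells kept in DMEM medium as the control, and cells exposed to doxorubicin at 0.1 µM over 2, 4 or 6 days. In the titles these exposures read 48, 96 and 112 hours, so the longest, called 6 days here after the stated design, may be 112 hours. Every title, those of the controls included, also reads Day6, and it is not stated whether each exposure ended at harvest. Doxorubicin, an anthracycline, locks topoisomerase II onto cut DNA, and the study addressed doxorubicin-induced heart muscle disease. Separate cultures are not stated for the 3 libraries of a group, so p-values measure only how far these libraries differ, which may be technical.

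Interferons bind receptors that activate JAK kinases, and the transcription factors that follow, IRF9 among them, bind a DNA element called ISRE in the promoters of many genes. GBP proteins are large GTPases that coat vacuoles holding bacteria or parasites and help inflammasomes to form. TRIM proteins are mostly RING-type ubiquitin ligases, several of which restrict viruses or tune the signalling that leads to interferon. TRIM22 is also known as a gene that p53 can induce.

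The promoter windows are shown because the ISRE core is the sequence feature that most of these genes share. The genes were chosen as ones of the interferon response, so this share is a description and not separate support. The core was searched as GAAA, any 2 bases, GAAA on both strands in RefSeq promoters of GRCh38.p14, each 250 bases before to 50 bases after a gene's start. Of the 10 genes, 8 have an entry in that promoter table, and TRIM22 and GBP2 have none. Of those 8 genes, 6 held a core in any of their entries (TRIM34 has 2), against 3.57% of 35116 single promoters. The 6 windows of 30 bases follow, 5′ to 3′ on each gene's own strand, with the core in capitals (in TRIM21, where 2 overlapping matches run together, both).
GBP1: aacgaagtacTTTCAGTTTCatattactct
GBP3: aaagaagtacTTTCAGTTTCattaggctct
GBP4: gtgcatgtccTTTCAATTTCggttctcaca
TRIM5: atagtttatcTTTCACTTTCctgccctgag
TRIM34: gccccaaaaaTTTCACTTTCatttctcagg
TRIM21: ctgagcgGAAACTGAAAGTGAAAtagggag

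The windows lie at chr1:89065316-89065345 for GBP1, chr1:89022845-89022874 for GBP3 and chr1:89198927-89198956 for GBP4, all on the minus strand. Those of TRIM5 (chr11:5685082-5685111) and TRIM21 (chr11:4393663-4393692) are on the minus strand and that of TRIM34 (chr11:5624901-5624930) is on the plus strand. The core began 127 bases before the RefSeq start in GBP1, 27 bases before it in TRIM5, 90 bases before it in TRIM34 and 4 bases before it in GBP4. It began 2 bases after the start in GBP3 and 17 bases after it in TRIM21. TRIM34 has a second promoter entry without a match. GBP1 and GBP3 share an unbroken run of 19 bases that includes the core. TRIM25 and TRIM38 had no match in their windows. The interferon gamma element GAS (TTC, any 3 bases, GAA) was found in 1 of the 8 genes, GBP3, against 7.66% of promoters. The decamer known as the p53 half-site was found in GBP3 and TRIM21, 2 of the 8, against 6.63%. Such a match is a string of letters, not a measured binding site.

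In GENCODE release 29 on GRCh38, 7 of the genes lie in 2 neighbourhoods and 3 lie apart. The 4 GBP genes lie on the minus strand within 192.267 kb of chromosome 1, in the order GBP3 (89006666 to 89022894), GBP1 (89052319 to 89065360), GBP2 (89106132 to 89150456) and GBP4 (89181148 to 89198932). On chromosome 11, TRIM34 (5619764 to 5644398, plus strand), TRIM5 (5663557 to 5938619, minus strand) and TRIM22 (5689689 to 5737089, plus strand) are neighbours. TRIM22 lies within the annotated span of TRIM5 on the other strand, and their exons share no base. TRIM21 lies apart on the same chromosome (4384897 to 4393696, minus strand). TRIM25 is on chromosome 17 (56836387 to 56914080, minus strand) and TRIM38 on chromosome 6 (25962802 to 25991226, plus strand).

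Total counts per library ran from 14835743 to 21226441. The mitochondrial share of counts ran from 5.51% to 8.34%, and 2 libraries stood apart in it within their group, replicate 3 after 2 days (5.51%) and control replicate 2 (8.26%). Levels below are CPM after TMM scaling, that is, counts scaled to a common library size. The drug response was plain in the textbook p53 targets: CDKN1A averaged 2300 ± 228 CPM after 2 days, against 198 ± 31.4 CPM in the control (SD, n = 3 each). Cardiomyocyte markers did not bear out the cell type label, since their 9 genes summed to 5.85 to 7.96 CPM in every library, 1 of them, GATA4, passed the count filter, and MYL2 had no count in any. The 8 fibroblast markers summed to 11506 to 11847 CPM after 2 days, 9914 to 10429 CPM after 4 days and 8452 to 8910 CPM after 6 days, against 7605 to 8346 CPM in the control, and none was at 0. All 8 were tested: 5 rose and 1 fell after 2 days, 2 rose and 4 fell after 4 days, and 1 rose and 5 fell after 6 days (edgeR quasi-likelihood test, adjusted p under 0.05). Without control replicate 1 or replicate 3 after 4 days, 1 rose after 4 days, and with library totals in place of TMM, 2 fell after 2 days. Over all tested genes, 23.8% rose and 23.4% fell after 2 days. The shares were 18.8% and 17.7% after 4 days and 22.0% and 21.7% after 6 days, and the marker counts are to be read against them. The 14 leukocyte and endothelial markers, none of which was at 0 in all libraries, summed to 12.9 to 16.3 CPM after 2 days, 15.04 to 19.2 CPM after 4 days and 17.6 to 19.3 CPM after 6 days, against 10.3 to 14.8 CPM in the control. Of the 7 tested, none was called after 2 days, and 2 rose and 3 fell after both 4 and 6 days. These counts too are to be read against the shares of all tested genes. After 6 days CD68 averaged 7.72 CPM, against 2.51 CPM in the control, and PECAM1 2.60 CPM, against 1.14 CPM (edgeR adjusted p = 3.73e-06 and 0.00077). Those that fell were KDR, at 0.836 CPM after 6 days, against 3.43 CPM in the control, CD14, at 0.275 CPM, against 1.43 CPM, and VWF, at 0.351 CPM, against 1.13 CPM (edgeR adjusted p = 2.94e-05, 0.000476 and 0.00429). PECAM1, KDR, CD14 and VWF were named after their values were seen. The part of the cell types that these lists mark in the results below was not tested.

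TRIM22 and GBP1 were both highest after 2 days and parted at the longer exposures. TRIM22, an interferon-induced ligase that restricts HIV and influenza virus, stood at 11.5, 10.6 and 13.4 CPM in the control libraries and 128, 129 and 132 CPM after 2 days. It then measured 108, 121 and 89.1 CPM after 4 days and 127, 123 and 111 CPM after 6 days. All 9 doxorubicin libraries were far above all 3 controls, and the libraries of the 4-day and 6-day groups overlapped. The fold over control was 10.97 after 2 days, 8.98 after 4 days and 10.2 after 6 days (log2 3.46 ± 0.11, 3.17 ± 0.11 and 3.35 ± 0.11, SE).  Of the exon bases of TRIM22, 10.7% are also annotated on the same strand in OR56B1. In bulk libraries, fewer cells expressing a gene and less of its RNA per cell cannot be told apart.

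GBP1, the best studied of the guanylate-binding proteins, stood at 61.3, 52.1 and 59.3 CPM in the control libraries and 110.5, 108.8 and 105.6 CPM after 2 days. It measured 32.8, 33.5 and 31.1 CPM after 4 days and 38.4, 37.2 and 33.4 CPM after 6 days. The 2-day libraries lay above every control library and the 4-day and 6-day libraries below every one. The fold over control was 1.88 after 2 days (log2 0.91 ± 0.084), 0.563 after 4 days (-0.83 ± 0.087) and 0.63 after 6 days (-0.67 ± 0.086). Between 2 and 4 days of exposure the difference was the largest of the 10 genes apart from that of GBP4, with a mean of 32.4 CPM after 4 days, against 108.3 CPM after 2 days (log2 -1.74 ± 0.087).

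**Figure D1:**
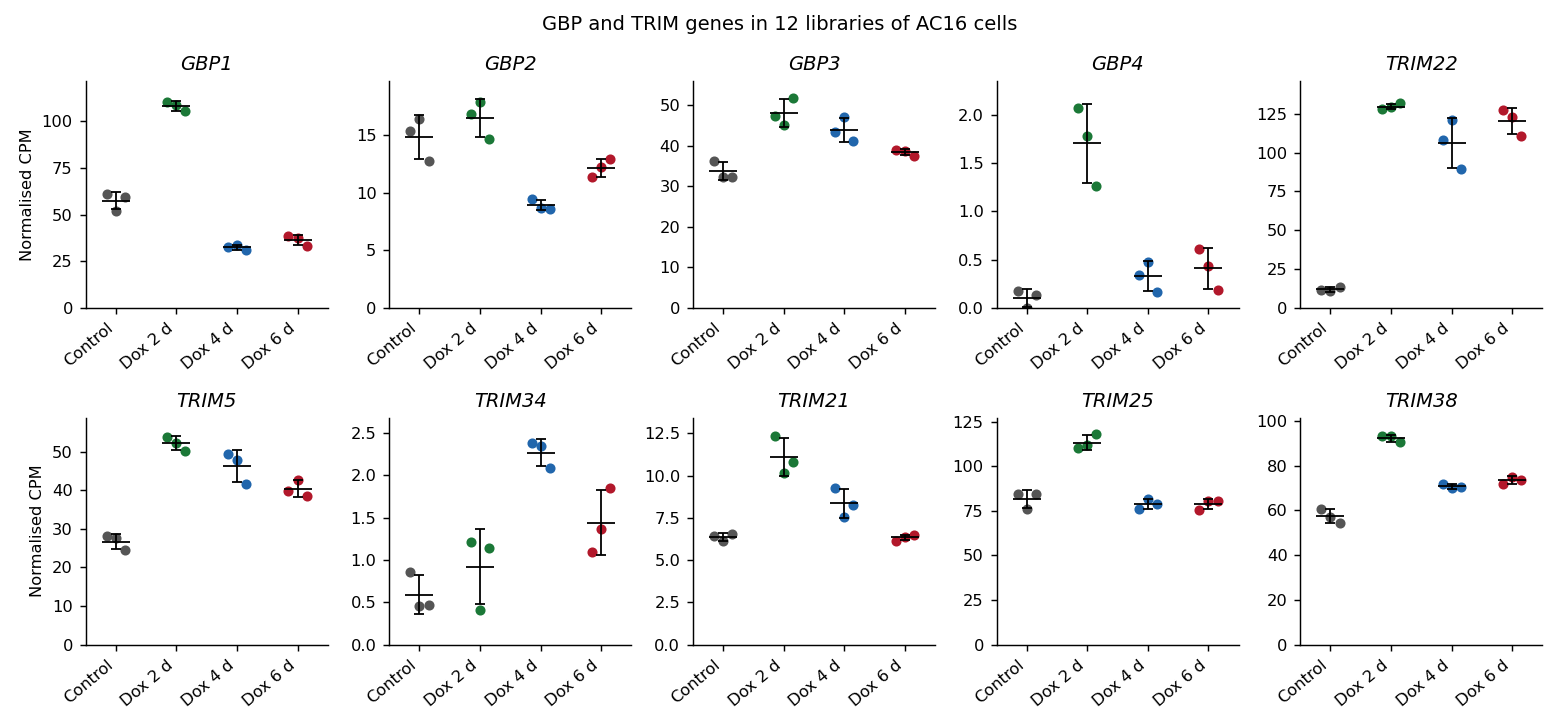
Normalised CPM (vertical axes, from 0, each gene on its own scale) of the 10 genes in each of the 12 libraries, by group; points are libraries, the long bar is the group mean and the error bar its SD (n = 3). TRIM22 is at 108 CPM or above in 8 of the 9 doxorubicin libraries, while GBP1 is highest after 2 days and lowest after 4 days.

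GBP3 did not fall below the control as GBP1 did, but unlike TRIM22 it came close to the control after 6 days. It is a close relative of GBP1 whose protein has been linked to resistance against influenza virus, and it stood at 36.3, 32.4 and 32.4 CPM in the control libraries, 47.3, 45.04 and 51.8 CPM after 2 days, 43.3, 47.0 and 41.2 CPM after 4 days, and 38.9, 38.6 and 37.5 CPM after 6 days. Every doxorubicin library was above every control library, by a narrow margin after 6 days (log2 0.51 ± 0.090, 0.38 ± 0.090 and 0.19 ± 0.090 over the control). After 4 days its difference from the control had the opposite sign to that of GBP1.

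GBP2, which helps to break open vacuoles that hold bacteria, had no clear gain after 2 days. Its control libraries measured 15.4, 16.4 and 12.7 CPM and its 2-day libraries 16.9, 17.9 and 14.7 CPM, and the groups overlapped. It measured 9.44, 8.70 and 8.62 CPM after 4 days, below every control library (log2 -0.74 ± 0.13), and 11.4, 12.2 and 12.9 CPM after 6 days, which overlapped the control (log2 -0.28 ± 0.12). Of its exon bases, 9.90% are also annotated in GBP7, which had 2 counts in all.

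GBP4, a negative regulator of signalling through IRF7, was close to the limit of detection in the control, with counts of 3, 0 and 2. Its level was 0.170, 0 and 0.132 CPM there, 2.07, 1.78 and 1.26 CPM after 2 days, 0.339, 0.480 and 0.165 CPM after 4 days, and 0.609, 0.436 and 0.185 CPM after 6 days. The 2-day libraries held 88 counts together, against 5 in the control libraries, and the fitted difference (log2 3.95 ± 0.59) rests on those few control counts. The 4-day libraries overlapped the control and the 6-day libraries lay just above it. GBP5, outside the 10 genes, ran at the same edge, with 0 counts in the control libraries together, 14 after 2 days, 4 after 4 days and 5 after 6 days.

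TRIM5, the retroviral restriction factor that binds incoming capsids, stayed above the control at each exposure. It stood at 28.0, 27.5 and 24.4 CPM in the control libraries, 53.9, 52.3 and 50.3 CPM after 2 days, 49.3, 47.9 and 41.6 CPM after 4 days, and 39.8, 42.7 and 38.5 CPM after 6 days. All 9 doxorubicin libraries were above all 3 controls (log2 0.97 ± 0.093, 0.79 ± 0.093 and 0.60 ± 0.094), and the 6-day libraries were all below the 2-day libraries. Of the exon bases of TRIM5, 7.95% are also annotated on the same strand in AC104389.4.

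TRIM34, a TRIM5 relative that acts with TRIM5 against some lentiviral capsids, was the exception in timing, with its highest mean after 4 days. Its control libraries measured 0.852, 0.460 and 0.462 CPM, its 2-day libraries 1.21, 0.411 and 1.14 CPM, its 4-day libraries 2.38, 2.34 and 2.09 CPM, and its 6-day libraries 1.10, 1.36 and 1.85 CPM. The 2-day libraries overlapped the control, the 4-day libraries lay above all others, and the 6-day libraries lay above the control (log2 1.90 ± 0.37 after 4 days and 1.27 ± 0.38 after 6 days). These values rest on 29, 49, 119 and 83 counts over the 3 libraries of the control, 2-day, 4-day and 6-day groups. Of its exon bases, 83.0% are also annotated in the readthrough gene TRIM6-TRIM34, which held 2 counts in the whole table, and how reads common to both were counted is not given in the sources used here.

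TRIM6, the neighbour on the TRIM34 side and an activator of the kinase IKBKE, was not among the 10 genes and went the other way after 2 days. It averaged 2.68 ± 0.56 CPM after 2 days, against 5.04 ± 0.77 CPM in the control (log2 -0.89 ± 0.20, adjusted p = 0.000642, SD, n = 3 each), and 5.27 ± 0.74 CPM after 4 days, where it did not pass the test (adjusted p = 0.816). Its 4-day level was above the 2-day level (log2 0.96 ± 0.20, adjusted p = 0.000428).

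TRIM21, the cytosolic antibody receptor that marks antibody-coated virus for destruction, stood at 6.41, 6.11 and 6.54 CPM in the control libraries and 12.3, 10.1 and 10.8 CPM after 2 days. It measured 9.28, 7.56 and 8.23 CPM after 4 days and 6.15, 6.38 and 6.48 CPM after 6 days. The 2-day and 4-day libraries were above every control library, and the 6-day libraries overlapped the control (log2 0.81 ± 0.14, 0.40 ± 0.14 and -0.0025 ± 0.14).

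TRIM25, the ligase that works with RIG-I and ZC3HAV1 in sensing viral RNA, stood at 84.4, 76.2 and 84.6 CPM in the control libraries and 110, 112 and 118 CPM after 2 days. It measured 75.9, 81.5 and 79.0 CPM after 4 days and 75.5, 80.6 and 80.5 CPM after 6 days. The 2-day libraries were above every control library and the later libraries overlapped the control (log2 0.47 ± 0.077, -0.053 ± 0.077 and -0.052 ± 0.077). Of its exon bases, 8.80% are shared with other annotated genes, partly on the other strand.

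TRIM38, which limits signalling from Toll-like receptors and the TAB2 complex, stood at 60.8, 57.3 and 54.3 CPM in the control libraries and 93.1, 93.2 and 90.6 CPM after 2 days. It measured 72.1, 70.0 and 70.3 CPM after 4 days and 71.9, 75.2 and 73.7 CPM after 6 days. It was above the control in all 9 doxorubicin libraries, and its 4-day and 6-day libraries overlapped each other (log2 0.68 ± 0.076, 0.30 ± 0.076 and 0.36 ± 0.076).

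**Figure D2:**
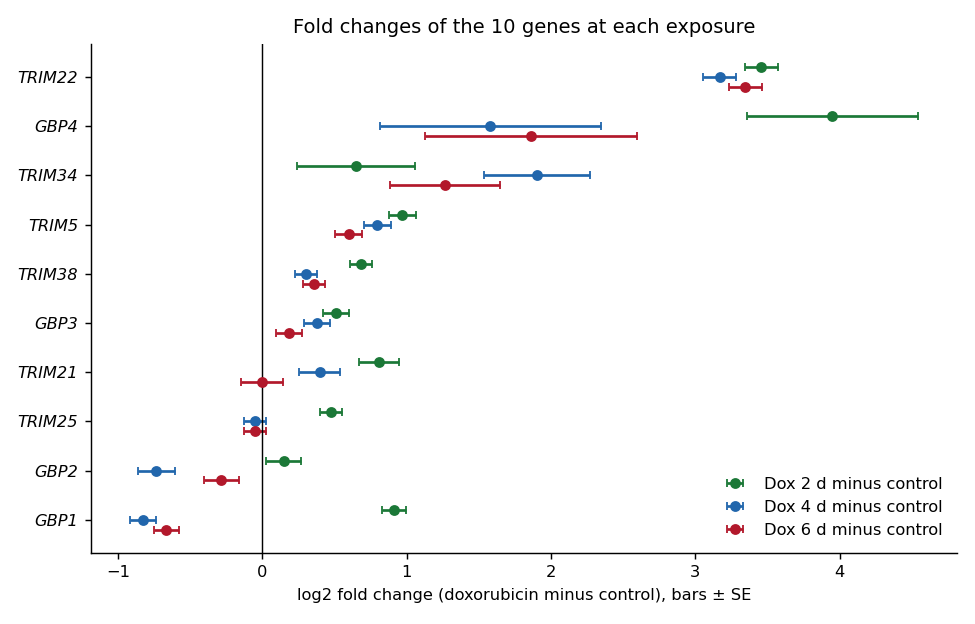
Fold change of each gene over the control on the log2 scale (horizontal axis), with SE bars, after 2 days (green), 4 days (blue) and 6 days (red) of doxorubicin. TRIM22 stays above 3 at each exposure, while GBP1 changes sign, with 0.91 after 2 days, -0.83 after 4 days and -0.67 after 6 days.

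All of the 10 genes except TRIM34, that is 9, had their highest group mean after 2 days. How many of all tested genes did so was not counted, so this number has no background to be read against. A gene was called where its adjusted p was under 0.05, and these counts restate what the genes were chosen on. After 2 days against the control, 8 of the 10 were called higher, where 23.8% of all tested genes were, and none was called lower, where 23.4% were; GBP2 and TRIM34 were not called. After 4 days 6 were called higher, where 18.8% of all tested genes were, and GBP1 and GBP2 were called lower, where 17.7% were. After 6 days 5 were called higher (TRIM22, TRIM5, TRIM38, TRIM34 and GBP4), where 22.0% of all were, and GBP1 was called lower, where 21.7% were. These 3 comparisons share the same controls. The median log2 fold change of the 10 genes was 0.75, 0.39 and 0.27 after 2, 4 and 6 days, while that of all tested genes was -0.013, -0.0028 and -0.0061.

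Between exposures, 7 of the 10 genes were called lower after 4 days than after 2 days, where 18.5% of all tested genes were, and TRIM34 was called higher, where 16.3% were. GBP3 and TRIM5 were not called. After 6 days against 4 days GBP2 was called higher, where 3.05% of all were, and none was called lower, where 3.73% were. Replicate 3 after 2 days and control replicate 2 are the libraries apart in mitochondrial share. Without both, TRIM21 after 4 days and GBP4 after 6 days were no longer called higher, and the other calls of the 10 genes were unchanged. The call of TRIM21 after 4 days was also lost without any 1 control library or without replicate 1 or 3 after 4 days. The call of GBP4 after 6 days was lost without control replicate 2 or 3 or without replicate 1 or 2 after 6 days, and that of TRIM34 without replicate 3 after 6 days. Without replicate 2 after 2 days TRIM34 was called higher there, and without control replicate 3 GBP2 was called lower after 6 days. TRIM22 was no longer called lower after 4 days than after 2 days without replicate 3 of either group, nor TRIM21 without replicate 1 after 2 days or replicate 2 or 3 after 4 days. The GBP2 call after 6 days against 4 days was lost without any 1 of the 6 libraries. With library totals in place of TMM, TRIM22 and TRIM21 were not called lower after 4 days than after 2 days, and GBP3 was called higher after 6 days than in the control. With no low-count filter, TRIM21 after 4 days and GBP4 after 6 days were not called.

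The genes also differed in how much of their 2-day gain was left. The gain in CPM at 2 days was set to 100%, leaving out GBP2 and TRIM34, whose 2-day libraries overlapped the control. TRIM22 held 80.1 ± 7.95% of its gain after 4 days and 91.99 ± 4.19% after 6 days (SE). TRIM5 held 76.9 ± 9.94% and 53.8 ± 5.73%, and GBP3 70.8 ± 15.6% and 32.5 ± 8.15%. TRIM38 held 38.2 ± 3.93% and 46.3 ± 4.15%, and TRIM21 42.2 ± 12.1% and then -0.34 ± 3.40%, which is the control level. GBP4 held 14.2 ± 6.66% and 19.3 ± 8.60%. TRIM25 was at -9.24 ± 10.9% and -9.08 ± 10.97%, and GBP1 at -49.5 ± 8.41% and -41.9 ± 8.39%, which is below the control level at both exposures.

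Per kilobase of annotated exon, GBP1 had the highest control level of the 10 genes, at 11.5 ± 0.96 CPM per kb, and TRIM22 was eighth, at 1.96 ± 0.24 CPM per kb. After 2 days GBP1 (21.7 ± 0.50) and TRIM22 (21.5 ± 0.31 CPM per kb) did not differ beyond their spread. After 6 days TRIM22 was highest at 19.96 ± 1.39 CPM per kb. GBP3 (8.92 ± 0.17), TRIM5 (8.40 ± 0.45), TRIM25 (8.30 ± 0.31), TRIM38 (7.82 ± 0.18) and GBP1 (7.28 ± 0.52 CPM per kb) followed. From GBP3 to GBP1, the range of mean ± SD of each gene overlapped that of the next, only just for TRIM25 and TRIM38. TRIM21 (3.29 ± 0.087), GBP2 (1.94 ± 0.12), TRIM34 (0.534 ± 0.14) and GBP4 (0.0669 ± 0.035 CPM per kb) came last. Of the exon bases of TRIM34, 83.0% are shared with TRIM6-TRIM34, and how reads common to both were counted is not given. The level of TRIM34 per kilobase, its place in this order and its part in the TRIM sum below are therefore uncertain. TRIM22 made up 7.63 ± 0.94% of the summed level of the 6 TRIM genes in the control, 35.8 ± 0.70% after 2 days, 36.4 ± 3.07% after 4 days and 41.3 ± 2.05% after 6 days. GBP1 made up 52.99 ± 2.32%, 60.6 ± 1.28%, 35.8 ± 0.61% and 39.9 ± 1.55% of the summed level of the 4 GBP genes in the same order.

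The genes whose course was most like that of TRIM22 or GBP1 were sought among 1351 tested genes. Each reached a mean of 10 CPM in some group, had group means that spanned 1 log2 unit or more, and passed a symbol filter. The filter kept symbols made of capitals, digits and hyphens alone, and left out LINC and clone names and those ending in -AS or -DT. The measure was the Pearson correlation of log2 CPM over the 12 libraries, which share the 4 groups, so it describes the pattern of group means more than 12 separate points. For TRIM22 these were ZMAT3 (0.996), PSTPIP2 (0.996), CLCA2 (0.995), STOM (0.994) and EDA2R (0.994). ZMAT3 averaged 59.0 CPM in the control and 309.7, 270.5 and 302.0 CPM after 2, 4 and 6 days. For GBP1 they were PRSS23 (0.990), DEPTOR (0.986), KLF4 (0.983), ATF3 (0.983) and DUSP5 (0.981). ATF3 averaged 94.6 CPM in the control and 204.6, 60.05 and 57.9 CPM after 2, 4 and 6 days. With Spearman's correlation none of the 5 names was kept for either gene, and with the 4 group means 2 were kept for TRIM22 and 3 for GBP1.

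**Figure D3:**
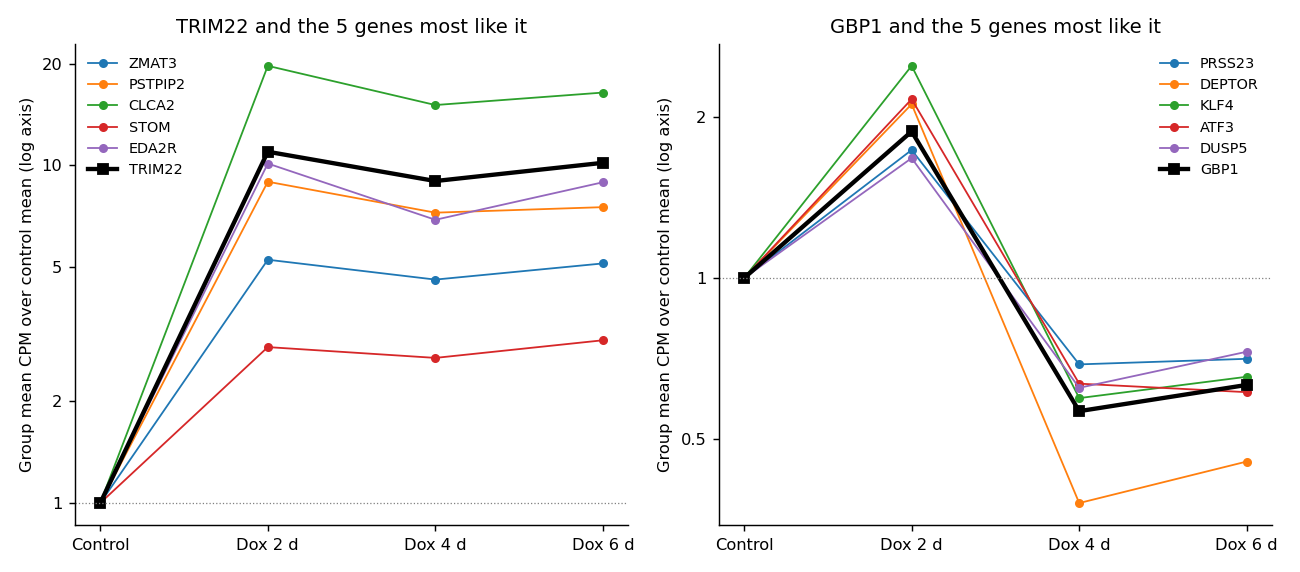
Group mean CPM over the control mean (vertical log axes) for TRIM22 (left, black squares) and GBP1 (right, black squares), with the 5 genes most correlated with each (coloured circles). TRIM22 and its 5 stay above the control after 4 and 6 days, and GBP1 and its 5 lie below it. The 5 were chosen for this likeness in the same libraries, so their side of the control is not a separate result.

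The rest of the interferon pathway was described from lists of genes outside the 10, where the test applies. All adjusted p-values are from edgeR's quasi-likelihood test over 17320 genes. Each list's counts are to be read against the shares of all tested genes, of which 23.8% were higher and 23.4% lower than the control after 2 days, 18.8% and 17.7% after 4 days, and 22.0% and 21.7% after 6 days. Of 38 tested type I interferon antiviral genes, 28 rose (73.7%) and 2 fell (5.26%) after 2 days, with a median log2 fold change of 1.18; without control replicate 1 or replicate 2 after 2 days, 1 fell. After 4 days 16 rose (42.1%) and 5 fell (13.2%), with a median of 0.37, and after 6 days 12 rose (31.6%) and 6 fell (15.8%), with a median of 0.24. Between 2 and 4 days 30 of the 38 fell (78.9%, where 18.5% of all tested genes did) and none rose (median -0.93). OASL, an oligoadenylate synthetase relative that helps RIG-I, averaged 56.4 ± 7.38 CPM after 2 days, against 1.67 ± 0.50 CPM in the control (log2 5.09 ± 0.17, adjusted p = 2.29e-17). It averaged 5.19 ± 1.01 CPM after 4 days (log2 -3.44 ± 0.15 against 2 days, adjusted p = 1.28e-14). HERC5, the ligase that attaches ISG15 to proteins, averaged 40.9 ± 1.52, 17.3 ± 0.78 and 22.05 ± 0.67 CPM after 2, 4 and 6 days, against 11.1 ± 1.11 CPM in the control (log2 0.99 ± 0.10 after 6 days, adjusted p = 3.08e-08). Among those that fell, IFITM3 averaged 40.8 and 34.5 CPM after 4 and 6 days, against 66.0 CPM in the control (log2 -0.69 ± 0.12 and -0.93 ± 0.12, edgeR adjusted p = 6.83e-05 and 1.05e-06).

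Of 26 tested interferon gamma response genes, 11 rose and 1 fell after 2 days (median log2 fold change 0.36), 5 rose and 3 fell after 4 days (0.10), and 7 rose and 5 fell after 6 days (0.22). After 2 days these are 42.3% higher and 3.85% lower, against 23.8% and 23.4% of all tested genes. After 4 days they are 19.2% and 11.5%, against 18.8% and 17.7%, and after 6 days 26.9% and 19.2%, against 22.0% and 21.7%, so the later counts of higher genes were near those of all genes. The 5 that rose after 4 days were 2 without replicate 1 of the control and 3 without its replicate 3, and they were 2 without replicate 1 or 2 of the 4-day group. The 3 that fell then were 5 without control replicate 3, and the 1 that fell after 2 days was 2 without control replicate 1. ICAM1, the adhesion molecule, had its highest level after 4 days, as TRIM34 did among the 10 genes: 125 ± 9.10, 239 ± 9.80 and 146 ± 11.3 CPM after 2, 4 and 6 days, against 44.9 ± 5.57 CPM in the control (log2 2.41 ± 0.094 after 4 days, adjusted p = 4.71e-16). TAP1, the peptide transporter of antigen presentation, averaged 50.8 CPM after 2 days, against 17.1 CPM in the control (log2 1.57 ± 0.11, adjusted p = 1.4e-11). Among those that fell, WARS1 averaged 76.8 and 69.7 CPM after 4 and 6 days, against 158 CPM in the control (log2 -1.04 ± 0.080 and -1.18 ± 0.080, edgeR adjusted p = 1.49e-10 and 9.73e-12).

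Of 11 tested receptor and signalling genes 4 rose and 0 fell after 2 days, and of 11 transcription factors and feedback genes 4 rose and 1 fell. In both lists 36.4% rose, against 23.8% of all tested genes, and 1 gene is 9.09% of a list of this size. Without control replicate 2, 1 receptor or signalling gene fell, and without replicate 1 or 3 after 2 days 0 factors fell. After 4 days 3 receptor or signalling genes rose (27.3%) and 0 fell, against 18.8% and 17.7% of all tested genes. Of the factors 2 rose (18.2%) and 3 fell (27.3%). After 6 days 3 receptor or signalling genes rose (27.3%) and 1 fell (9.09%), against 22.0% and 21.7%. Of the factors 2 rose (18.2%) and 4 fell (36.4%). Calls of IFNAR2 after 4 days and of IFNAR1, STAT2 and IFNGR1 after 6 days were lost when some single libraries were left out. IRF1, a factor that binds ISRE elements and drives GBP genes, averaged 42.7 ± 3.39 CPM after 2 days, 17.8 ± 1.54 CPM after 4 days and 19.4 ± 1.70 CPM after 6 days, against 23.6 ± 1.42 CPM in the control. It rose after 2 days (log2 0.85 ± 0.10, adjusted p = 1.72e-07) and fell after 4 days (log2 -0.41 ± 0.11, adjusted p = 0.00387). Its call after 6 days (adjusted p = 0.0305) was lost without control replicate 1 (0.0759) or 2 (0.0754) and without replicate 2 (0.0738) or 3 (0.134) after 6 days. It was also lost with library totals (0.0597), no low-count filter (0.079), the compared groups alone (0.0617) and without the 2 libraries apart in mitochondrial share (0.0708). IRF9 averaged 1.02 ± 0.38, 1.02 ± 0.34 and 0.694 ± 0.49 CPM after 2, 4 and 6 days, against 1.12 ± 0.28 CPM in the control, and was not called (adjusted p = 0.834, 0.823 and 0.213), except after 6 days without replicate 2 of that group (adjusted p = 0.0254).

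Interferon genes themselves were at or near 0. Of 10 ligand genes listed, 1 passed the count filter, the epithelial type I interferon IFNE (named after its values were seen), which averaged 0.931 ± 0.34 CPM after 2 days, against 1.88 ± 0.090 CPM in the control (log2 -0.98 ± 0.28, adjusted p = 0.00654). IFNB1 had 0, 4, 1 and 0 counts over the control, 2-day, 4-day and 6-day libraries, and IFNG had 0, 1, 0 and 1. At these depths a ligand's level could not be followed.

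Proteins that TRIM25, TRIM21 and TRIM38 act on or with were listed apart, and 9 of the 21 tested rose and 3 fell after 2 days, 9 rose and 1 fell after 4 days, and 9 rose and 2 fell after 6 days. The 9 are 42.9% of the list, against 23.8%, 18.8% and 22.0% of all tested genes, and the shares that fell were 14.3%, 4.76% and 9.52%, against 23.4%, 17.7% and 21.7%. Without control replicate 1 or 2, 2 fell after 4 days. ZC3HAV1, the zinc-finger antiviral protein that needs TRIM25, averaged 257 CPM after 2 days, against 71.6 CPM in the control (log2 1.84 ± 0.080, adjusted p = 2.28e-15), and 93.2 CPM after 4 days (log2 0.38 ± 0.080 against the control, adjusted p = 0.000532). MAVS, the adaptor below RIG-I, was higher by a steady amount, with log2 0.45 ± 0.071, 0.57 ± 0.071 and 0.55 ± 0.071 over the control after 2, 4 and 6 days (adjusted p = 9.62e-06, 5.79e-07 and 6.52e-07). STING1, the adaptor of cytosolic DNA sensing, averaged 18.9 CPM after 2 days, against 7.39 CPM in the control (log2 1.35 ± 0.13, adjusted p = 4.87e-09), and 8.10 CPM after 4 days (log2 -1.22 ± 0.13 against 2 days, adjusted p = 5.03e-08). Among those that fell, TAB2 was lower after 4 and 6 days (log2 -0.27 ± 0.072 and -0.47 ± 0.072, edgeR adjusted p = 0.00434 and 1.07e-05). CGAS was lower after 2 days (log2 -0.34 ± 0.10, edgeR adjusted p = 0.00808), a call lost without replicate 2 after 2 days (0.0661).

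Genes of the wider TRIM family were called in both directions, at shares near those of all tested genes. Of 71 other TRIM genes, 40 were tested, of which 11 rose and 12 fell after 2 days, 7 rose and 5 fell after 4 days, and 9 rose and 7 fell after 6 days. That is 27.5% higher and 30% lower after 2 days, against 23.8% and 23.4% of all tested genes, 17.5% and 12.5% after 4 days, against 18.8% and 17.7%, and 22.5% and 17.5% after 6 days, against 22.0% and 21.7%. The 5 that fell after 4 days were 3 without replicate 1 of that group. TRIM55, the muscle RING-finger protein MURF2 of striated muscle, averaged 8.74 ± 2.33, 10.6 ± 1.67 and 14.7 ± 1.55 CPM after 2, 4 and 6 days, against 0.207 ± 0.13 CPM in the control, which rests on 10 counts (log2 5.36 ± 0.33, 5.62 ± 0.32 and 6.09 ± 0.31, adjusted p = 1.82e-12, 7.29e-13 and 4.85e-14). TRIM35 averaged 49.7 CPM after 2 days, against 15.4 CPM in the control (log2 1.69 ± 0.11, adjusted p = 2.36e-12), and 21.9 CPM after 4 days. TRIM59 fell at each exposure, to 32.7, 37.3 and 31.9 CPM after 2, 4 and 6 days, against 71.4 CPM in the control (log2 -1.12 ± 0.098, -0.94 ± 0.097 and -1.16 ± 0.097, adjusted p = 8.66e-10, 2.95e-08 and 5.2e-10). TRIM14, an adaptor at MAVS, averaged 18.2 ± 1.82 CPM after 6 days, against 25.8 ± 2.83 CPM in the control (log2 -0.50 ± 0.11, adjusted p = 0.000671).

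**Figure D4:**
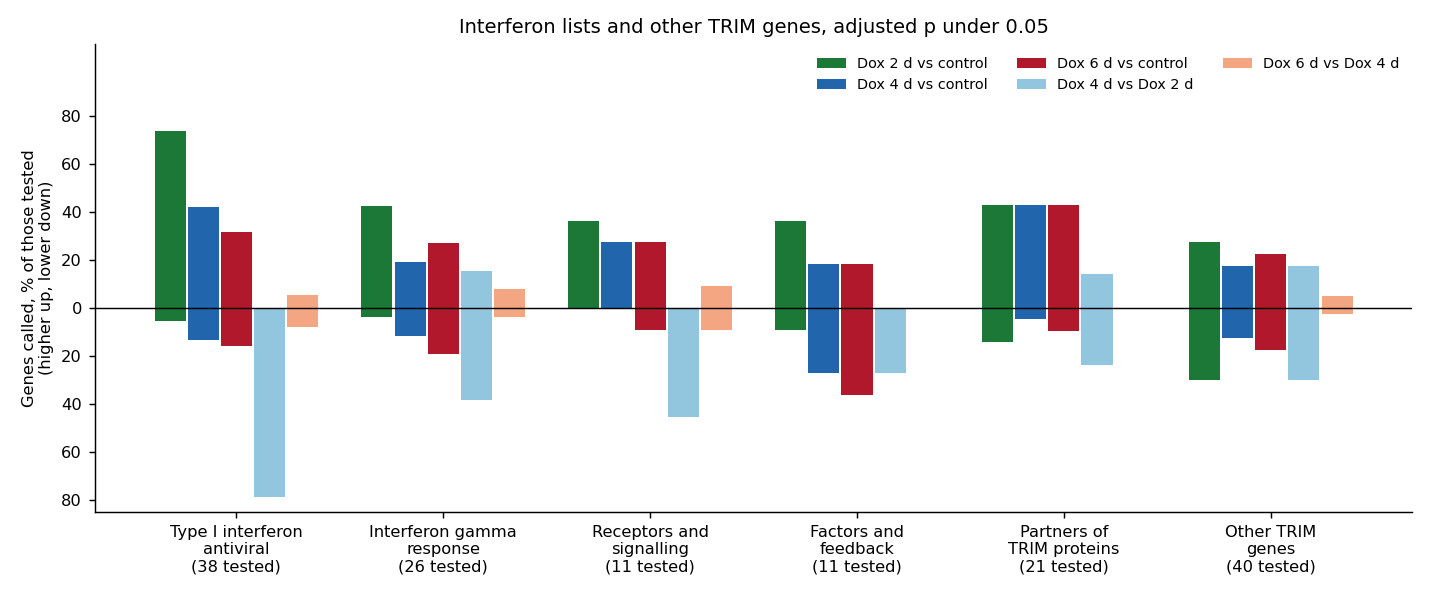
Share of the tested genes of each list (vertical axis, percent; higher above 0, lower below) with an adjusted p under 0.05 in each of the 5 comparisons (colours); the 10 genes are not in the lists. The long light-blue bar of the type I antiviral list stands for 30 of 38 genes lower after 4 days than after 2 days.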

How the data were processed

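RNA of 12 libraries was sequenced after preparation with a NEBNext Ultra kit (labels' protocols). The authors deposited raw counts for each Ensembl gene, whole numbers with no normalization. The submitters' processing notes name fastp 0.23.2, Trimmomatic 0.38, STAR 2.7.8, HTSeq 0.13.5 and GRCh38.p13. The strand setting and annotation are not given in the sources used here. Reads where genes overlap on opposite strands may therefore have gone to either gene. No 2 libraries of a group were copies (chi-square per degree of freedom 3.96 to 20.3).

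Symbols came from a reference table for 60437 of 60607 IDs. Counts were fitted with edgeR 4.0.16 in R 4.3.3: filterByExpr (minimum count 10, minimum total 15), TMM scaling (factors 0.936 to 1.06), 1 mean per group over all 12 libraries, glmQLFit with robust settings (common biological variation 0.0887, residual degrees of freedom 8) and glmQLFTest, with Benjamini-Hochberg adjustment over 17320 genes and a threshold of 0.05. Each SE was taken as the log2 fold change without its sign over the square root of F. The procedure was tested on simulated data. Exon lengths and positions came from GENCODE 29 and promoters from RefSeq.

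The genes, lists and rules were chosen with earlier results of these data known. Named genes of each list were taken from its up to 4 called genes with the smallest p and a mean of at least 5 CPM, plus a panel; the genes in opposite directions were chosen after their values were seen. So were the share of the 2-day gain, the sums per kilobase, the pooled counts, the symbol pattern for other TRIM genes and the symbol filter for like genes, which was widened after a first result. Alternatives tried were library totals, size factors of the DESeq2 type, other filters, DESeq2 1.42.0, a block for the replicate number, the compared groups alone and leaving out libraries. A gene that the rule names is not reported here.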

Additional observations from a re-analysis of the deposited data

Results flagged for a closer look

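Among 147 tested genes of the interferon lists, the TRIM partner list and the other TRIM genes, 6 had a difference from the control that was called in opposite directions at 2 days and at a later exposure, and the test between 4 and 2 days also passed (edgeR quasi-likelihood test). They are 4.08% of the genes searched, and over all 17310 tested genes outside the 10 the same rule takes 527, or 3.04%. GBP1 too was higher after 2 days and lower later. IRF1 and SECTM1, a secreted and membrane protein, were higher after 2 days and lower after 4 days and 6 days than the control, with log2 differences of -1.26 (adjusted p = 9.77e-10) and -2.31 (adjusted p = 5.75e-09) between 4 and 2 days. IFIT1, which binds viral RNA that lacks cap methylation, was higher after 2 days and lower after 6 days than the control, with -2.11 (adjusted p = 2.08e-12) between 4 and 2 days. The apolipoprotein L genes APOL2 and APOL1 followed the same order, with -0.97 (adjusted p = 2.79e-09) and -0.58 (adjusted p = 0.000216). TRIM47, another TRIM gene, had -1.17 (adjusted p = 0.000776). The 2-day call of APOL1 was lost without control replicate 3 (adjusted p = 0.0709), without replicate 1 after 2 days (0.0581) or with library totals (0.106). That of TRIM47 was lost without control replicate 1 (0.0845) or 3 (0.0943), without replicate 1 after 2 days (0.129) or with library totals (0.0655). The 6-day call of SECTM1 was lost without control replicate 3 (0.059) or without replicate 2 (0.0677) or 3 (0.0707) after 6 days, and for IRF1 such losses stand with its values above.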

How the results depend on the processing

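Fold changes of the 10 genes were recomputed under 22 settings, giving 697 values, of which 690 moved by less than the spread between libraries, 7 moved further (all with library totals alone) and 0 of those called reversed. Of 364 counts, 321 stayed within 1.5 times. They are counts over the interferon lists and other TRIM genes, and the number of the 10 genes highest after 2 days. That last number was 9, and stayed 9 without any 1 library. The library totals shifted the median log2 fold change of all genes to -0.136 after 2 days, against -0.013 with TMM. They also changed the split of calls over all genes to 3203 higher and 5386 lower after 2 days (37.3% higher, against 50.4%), 3842 and 2443 for 4 against 2 days (61.1%, against 46.9%), and 1006 and 350 for 6 against 4 days (74.2%, against 44.97%). With library totals the interferon lists had 14 genes lower after 2 days (5 with TMM) and the other TRIM genes 8 lower after 4 days (5). For 6 against 4 days, where 13 list genes were called, library totals gave 20, with 8 interferon genes higher (5) and 8 other TRIM genes higher (2) and 0 lower (1). There, no filter gave 3 interferon genes higher and 0 other TRIM genes lower, the 1 CPM filter, the replicate block and the fit of the compared groups alone each gave 0 other TRIM genes lower, and that last fit gave 5 higher. Leaving out the 2 libraries apart in mitochondrial share, an alternative chosen after seeing the data, gave 5 higher and 2 lower. Leaving out 1 library gave 6 to 9 list genes in all for 6 against 4 days, with interferon genes 2 to 3 higher and 3 to 4 lower and other TRIM genes 1 to 2 higher and 0 lower. It gave 2 to 5 interferon genes higher for 4 against 2 days and 3 to 6 other TRIM genes lower after 4 days. The cause of these shifts was not tested. DESeq2-type size factors and DESeq2 moved no count over the interferon lists or other TRIM genes past 1.5 times. Deviations from the group means correlated weakly between libraries with the same replicate number (-0.171 to 0.0963). For 6 against 4 days these correlations were 0.0516, 0.0491 and 0.0552, each above the largest with another number (0.00162, 0.00621 and 0.00288). In every other comparison some were below the largest with another number. With 3 libraries per group, such values cannot exclude that the numbers pair libraries. The replicate block changed no other such count past 1.5 times. Calls of GBP4 and TRIM34 are limited by depth, with 5 and 29 control counts.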
